A study of Saccharomyces cerevisiae with 1 sample.

Results

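The guides described here are 7 small nucleolar RNAs (snoRNAs) of Saccharomyces cerevisiae that direct modification of the 25S rRNA only between nucleotides 2820 and 2980, the part of domain V that folds around the peptidyl transferase centre. They were chosen by name, for the position of their targets, and 5 are box H/ACA snoRNAs (SNR10, SNR34, SNR37, SNR42 and SNR46) while 2 are box C/D snoRNAs (SNR69 and SNR71). The deposited table of 67 RNAs lists 6 of the 7. SNR34 is not among its names, so its own hits were not analysed here, but both of its target nucleotides were. The targets of all 7 guides are 8 nucleotides among the 3396 of the 25S pileup.

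The data come from 1 CRAC library of BY4742, a laboratory yeast strain in which no protein carried the HTP tag, grown in minimal medium lacking tryptophan with glucose to an OD of 0.6. CRAC links proteins to RNA in living cells with UV light, purifies the tagged protein in successive steps, and sequences the RNA fragments that remain attached. Without a tag, the recovered fragments are the background of the purification, and they are what a tagged HTP-Dbp6 library would be compared with. That other library was not analysed here, and with 1 library no value has a replicate, a standard deviation or a test.

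Box H/ACA snoRNAs guide the conversion of uridine to pseudouridine by the enzyme Cbf5, through an internal loop in which short guide stretches pair with the rRNA on both sides of the target. Box C/D snoRNAs guide ribose methylation by Nop1, through a single stretch next to box D or D′ that pairs across the target. The peptidyl transferase centre is the catalytic site of the ribosome, made of rRNA, and its region is rich in both kinds of modification. SNR10 is also known for a part in the early cleavages of the pre-rRNA.

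The 161 nucleotides that hold the targets are shown as the pileup gives them, with T for U, since the hits of the targets depend on where they lie in this stretch. They correspond to chrXII:452202-452362 on the minus strand of the R64 assembly, within the 25S gene RDN25-1 (chrXII:451786-455181), and the 8 targets are in capitals.
25S nucleotides 2820 to 2980: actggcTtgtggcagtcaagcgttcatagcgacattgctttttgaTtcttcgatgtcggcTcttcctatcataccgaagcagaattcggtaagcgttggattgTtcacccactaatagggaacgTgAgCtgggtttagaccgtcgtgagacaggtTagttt
In order, the capitals are 2826 (SNR34), 2865 (SNR46), 2880 (SNR34), 2923 (SNR10), 2944 (SNR37), 2946 (SNR71), 2948 (SNR69) and 2975 (SNR42). All 6 H/ACA targets are T in the pileup, as the uridine of a pseudouridine has to be, and the C/D targets are A for SNR71 and C for SNR69. The targets of SNR37, SNR71 and SNR69 lie 2 nucleotides apart, within 5 nucleotides, whereas the next gaps along the sequence are between 15 and 43 nucleotides.

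In the control library, the 6 listed guides received 1537 hits per 1000000 reads (RPM) in all, which was 5.01% of the 30680 RPM on the snoRNA class. They make up 8.96% of the names in the table. Their median was 283.5 RPM, against 219 for the 61 other names. The order was the reverse by mean, with 256 against 478 RPM. It was also the reverse by median per 100 nt of RNA, with 88.1 against 171 RPM. Of the 6, 3 lay above the median of the whole table, and 33 of all 67 names did so.

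The 4 listed H/ACA guides were spread widely. SNR37, which guides pseudouridylation at nucleotide 2944, had 409 RPM and took place 19 of 67. SNR10, with its target at 2923, had 172 RPM at place 37, and SNR42, with its target at 2975, had 151 at place 40. SNR46, the guide for nucleotide 2865, had 10 RPM at place 64, and the only names below it were SNR33 and SNR191 with 1 each and SNR64, listed at 0. SNR37 thus had 40.9 times the hits of SNR46, and 20.9 times per unit of RNA length.

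The C/D guides were nearly equal, with 400 RPM for SNR71, which guides methylation of A2946, and 395 for SNR69, which guides methylation of C2948. They took places 20 and 21, directly below SNR37. The 3 guides whose targets cluster within 5 nucleotides therefore held consecutive places in the table, between SNR63 with 484 RPM and SNR54 with 394. The table has no error, so the order among SNR37, SNR71, SNR69 and SNR54, which differ by at most 15 RPM, cannot be resolved. SNR10 lay between SNR73 (181 RPM) and SNR57 (163), SNR42 between SNR83 (155) and SNR43 (150), and SNR46 below SNR36 (39). SNR42 and SNR43 likewise differed by only 1 RPM.

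**Figure D1:**
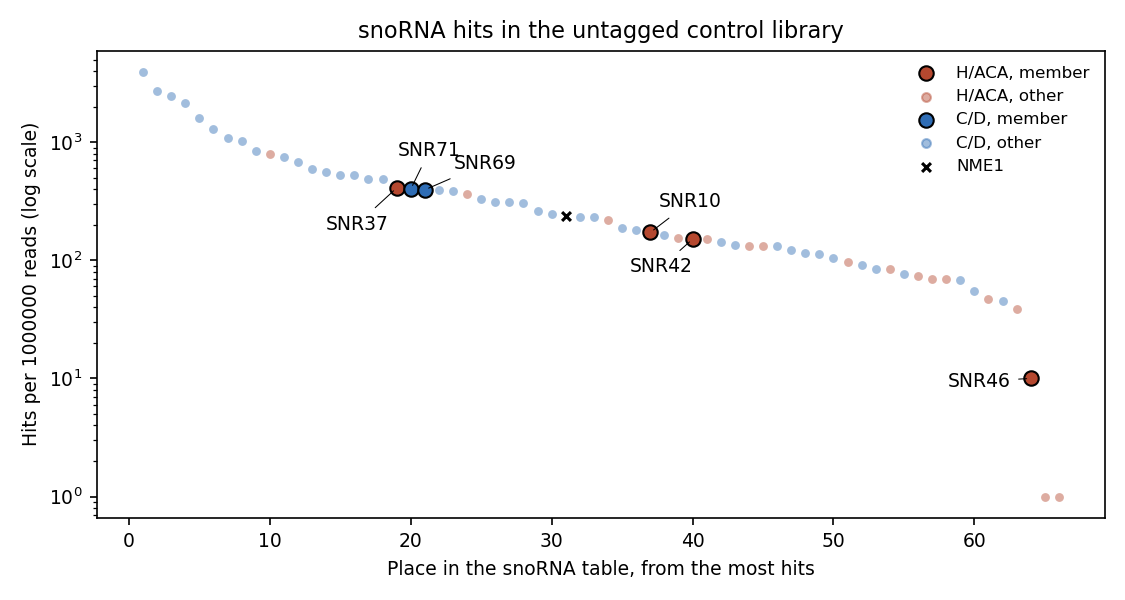
Hits per 1000000 reads (log scale) of the RNAs in the snoRNA table of the untagged control, in order from the most hits, with H/ACA snoRNAs in red, C/D snoRNAs in blue and outlined, labelled points for the 6 listed guides. SNR37, SNR71 and SNR69 are neighbours near 400, SNR10 and SNR42 lie at 172 and 151, SNR46 lies at 10, and SNR64, listed at 0, is not drawn.

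Set against each other, the median was 161.5 RPM for the H/ACA guides (range 10 to 409, n = 4 RNAs) and 397.5 for the C/D guides (n = 2 RNAs), a ratio of 0.406. The ranges overlapped, since SNR37 had more hits than either C/D guide. The same order of the classes held among the names outside the set, with a median of 90 RPM over 16 H/ACA snoRNAs and 308 over 44 C/D snoRNAs, a ratio of 0.292. Within their own classes, 5 of the 6 listed guides lay above the median. The H/ACA median over the 20 listed names was 114, below SNR37, SNR10 and SNR42. The C/D median over the 46 listed names was 311, below SNR71 and SNR69. Several H/ACA snoRNAs besides SNR34 are not listed, so class medians, places and ratios cover the listed names only. SNR37 was second among the H/ACA names, behind SNR30 (792 RPM), an essential snoRNA of 18S processing. SNR46 was the only listed guide below the median of its class in RPM, at place 18 of 20. Per 100 nt of RNA, SNR42 (43.0 against the H/ACA median of 47.0) also fell below it, which left 4 of the 6 above. The C/D guides were at places 18 and 19 of 46, far below SNR128 (3923 RPM), the U14 snoRNA, which has the most hits of any C/D name.

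The H/ACA snoRNAs of the table are mostly longer than its C/D snoRNAs, with a median of 206.5 nt against 97.5 nt, and a longer RNA can give more fragments. In RefSeq's R64 annotation, SNR37 spans 386 nt (chrX:228094-228479, minus strand), SNR42 spans 351 nt (chrXI:559016-559366, minus strand), SNR10 spans 245 nt (chrVII:345986-346230, plus strand) and SNR46 spans 197 nt (chrVII:545370-545566, plus strand). SNR69 spans 101 nt (chrXI:364776-364876, plus strand) and SNR71 spans 90 nt (chrVIII:411228-411317, plus strand). SNR34, which the table does not list, spans 203 nt (chrXII:899180-899382, plus strand). Of the 7, only SNR10 overlaps another annotated gene, the open reading frame YGL088W, whose reads cannot be told apart from its own by position. None of the others lies within a host gene.

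Per 100 nt of RNA, the groups separated. SNR37 had 106 RPM per 100 nt, SNR10 had 70.2, SNR42 had 43.0 and SNR46 had 5.08, against 444 for SNR71 and 391 for SNR69. On this scale every H/ACA guide lay below both C/D guides, and the ratio of the class medians was 0.136 (56.6 against 418 RPM per 100 nt). Among the names outside the set it was 0.190 (47.0 against 248). The place of SNR37 moved to 42 of 67, away from SNR71 at place 17 and SNR69 at place 19, so that the shared place of these 3 guides in the deposited order was lost. SNR37 had 0.238 times the value of SNR71 per length. SNR10 was at place 46, SNR42 at place 56 and SNR46 again at place 64.

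**Figure D2:**
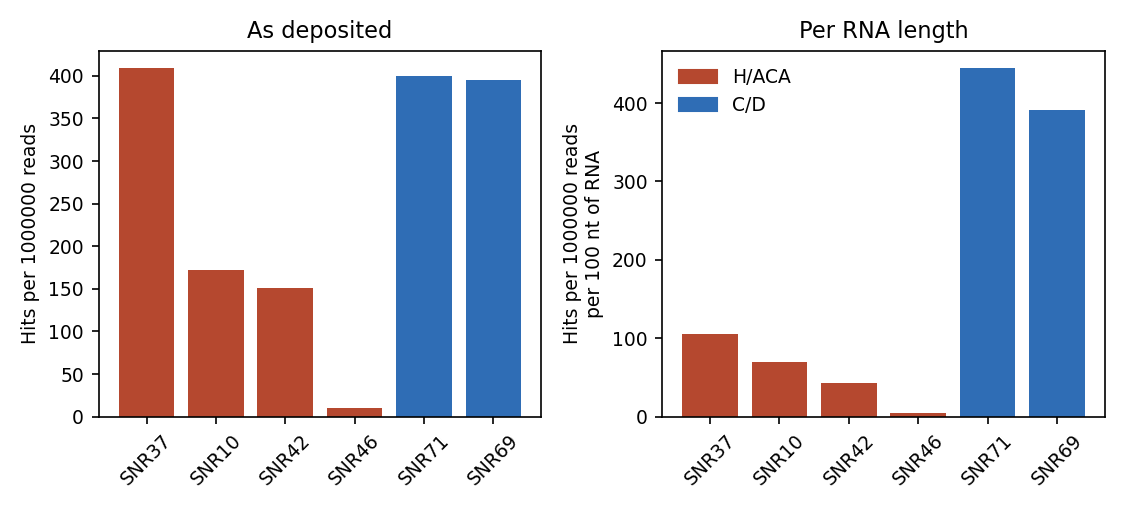
Hits per 1000000 reads of the 6 listed guides as deposited (left) and per 100 nt of annotated RNA length (right), with H/ACA guides in red and C/D guides in blue, 1 value each and no error. SNR37 is close to the C/D guides as deposited (409 against 400 and 395), and all 4 H/ACA guides are below them per length.

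Other guides with targets in domain V were taken as the nearest comparison, from a written list that is not complete for RNAs pairing there. SNR190 (328 RPM), whose base-pairing site the paper also places in domain V, is not on that list. The 8 C/D guides of that list had a median of 528.5 RPM, from 104 for SNR66 to 1590 for SNR52, and both SNR71 and SNR69 lay within this range. SNR38 had 1300, SNR51 had 596, SNR78 had 530, SNR48 had 527, SNR67 had 234 and SNR73 had 181. The H/ACA guides of the list were SNR189 with 363 RPM, below SNR37, and SNR11 with 132, below SNR42. SNR46 had fewer hits than any of these 10. Nucleotide 2921, methylated under guidance of SNR52, and 2959, the target of SNR73, also lie among the 161 nucleotides. SNR52 has another target in the 18S rRNA. SNR73 was not on the given list of names, so the set need not hold every guide of this region. With 181 RPM it lay below SNR71 and SNR69, so the near equality of the C/D guides holds for the listed guides only.

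At the target nucleotides, the hits on the 25S rRNA were uneven. A read adds 1 hit to each nucleotide that it covers. The pileup is headed as hits per 100000 reads, while the methods name 100000 as a limit for the pileup of each gene, and its hits sum to 52.5 for each of 100000 reads. Whether the unit is reads of the library or of the 25S rRNA is not settled, so hits are compared only within the pileup. The highest value was 1065 hits at 2865, the target of SNR46, followed by 916 hits at 2880, the 3′ target of SNR34. The clustered targets had 887 hits at 2944 (SNR37), 889 at 2946 (SNR71) and 885 at 2948 (SNR69), and targets this close are covered largely by shared reads, so they are not separate measurements. The target of SNR42 at 2975 had 653 hits. Far lower were the target of SNR10 at 2923, with 114 hits, and the 5′ target of SNR34 at 2826, with 46.

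The median of the 25S rRNA was 170 hits per nucleotide, and 6 of the 8 targets exceeded it, with 3.84 times its value at 2975 and up to 6.26 times at 2865. Hits were 0.671-fold of this median at 2923 and 0.271-fold at 2826. None of the 8 reached the mean of the 25S rRNA, 1547 hits. The 5% of 25S nucleotides with the most hits, 169 in all and none of them in the region, held 74.7% of the hits, and the mean over the others was 412. The target of SNR46 had more hits than 86.8% of the 25S nucleotides, and the 5′ target of SNR34 more than 14.6%. The pair of SNR34 targets, 54 nucleotides apart, thus differed by 19.9-fold.

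The targets lay in 4 stretches of the region. Nucleotides 2853 to 2899 each had at least 500 hits (mean 896) and contained 2865 and 2880. Nucleotides 2936 to 2980 did so as well (mean 772) and contained 2944, 2946, 2948 and 2975. The stretch between them, 2900 to 2935, had a mean of 152 hits and held the target of SNR10, and the stretch from 2820 to 2852 had a mean of 106 and held the 5′ target of SNR34. The limit of 500 hits was chosen after the values had been seen. Over the whole region the mean was 533 hits and the median 639, so that it held 1.63% of the 25S hits on 4.74% of its nucleotides, although its median was 3.76 times the median of the 25S rRNA.

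By class, the 6 H/ACA targets had between 46 and 1065 hits with a median of 770, and the C/D targets had 889 and 885. The range of the H/ACA targets enclosed the C/D targets. Over these 6 guides, the order of hits on the guides was not that on their targets, chiefly through SNR46. Among the others, SNR37, SNR71 and SNR69 exceeded SNR10 and SNR42 both as guides and at their targets. SNR10 and SNR42 stood in opposite orders. SNR46 had the fewest hits as an RNA and the target with the most, 9.34 times those at the target of SNR10, although SNR10 itself had 172 RPM and SNR46 had 10. For SNR37, SNR71 and SNR69 both values were close together. Guide and pileup values are on different scales, so only their orders were set side by side.

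**Figure D3:**
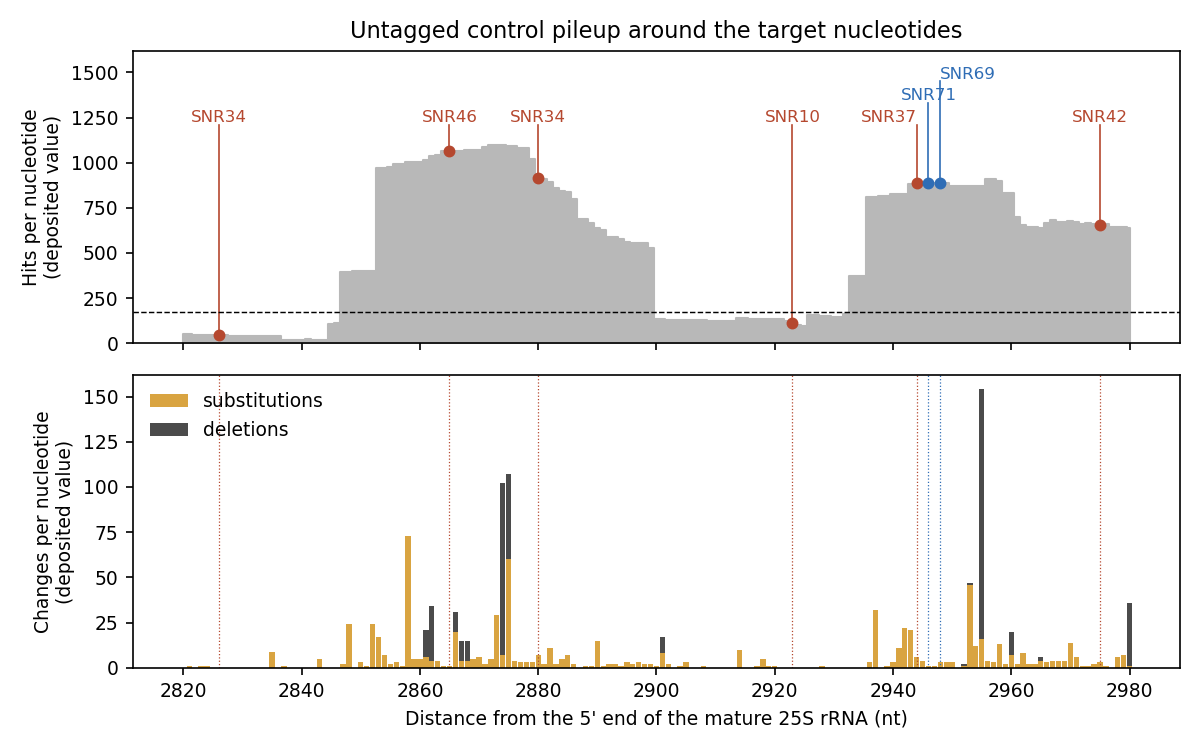
Control pileup over 25S nucleotides 2820 to 2980, with hits (upper panel, dashed line at the 25S median of 170) and stacked substitutions and deletions (lower panel) per nucleotide, as deposited. Points and vertical lines mark the H/ACA targets (red) and C/D targets (blue), which lie on 2 plateaus except for 2826 with 46 hits and 2923 with 114. The tallest bars of changes do not stand on the target lines, but 8 targets among 161 nucleotides are too few to make this a difference.

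Reverse transcriptase often misreads or skips a nucleotide that still carries a cross-linked amino acid, so substitutions and deletions were counted at each target. No tagged protein was present in this library, and the source of its substitutions and deletions was not tested. At the targets they were rare. At 2880 (SNR34) there were 7 substitutions in 916 hits (0.764%), at 2944 (SNR37) 6 in 887 (0.676%) and at 2975 (SNR42) 3 in 653 (0.459%). The C/D targets had 3 substitutions in 885 hits at 2948 (0.339%, SNR69) and 1 in 889 at 2946 (0.112%, SNR71). At 2865 (SNR46) there was 1 in 1065 hits (0.0939%), and none at 2923 (SNR10) or 2826 (SNR34). No target had a deletion.

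Changes per hit differ between bases, so each target with at least 100 hits was set against all other 25S positions that carry its base and reach the same number of hits, the targets left out. The median of 584 T positions was 0.405%, which 2880, 2944 and 2975 exceeded and 2865 and 2923 did not. The median of 641 A positions was 0.357%, above the value of 2946, and that of 460 C positions was 0.245%, below the value of 2948. In total 4 of the 7 targets with enough hits were above the median of their base. The highest, 2880, was changed more often than 69.0% of the T positions, so none stood near the upper end. Within the region the T positions other than targets were changed more often, with a median of 0.736% over 38 positions. Of these 38, 15 were changed in over 1% of hits. Over the 25S rRNA, the share of positions changed in over 1% of hits was 25.5% for T, 17.0% for A and 17.4% for C. No target was changed in over 1% of hits. Of the 7 targets with enough hits, 5 are T. At these shares, so few targets cannot show that targets differ from other positions. At 46 hits, the absence of changes at 2826 says little. The same holds for 2923 at 114 hits, although it counts among the 7 targets with enough hits. Because the number of reads sequenced is unknown, no limit can be attached to either.

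**Figure D4:**
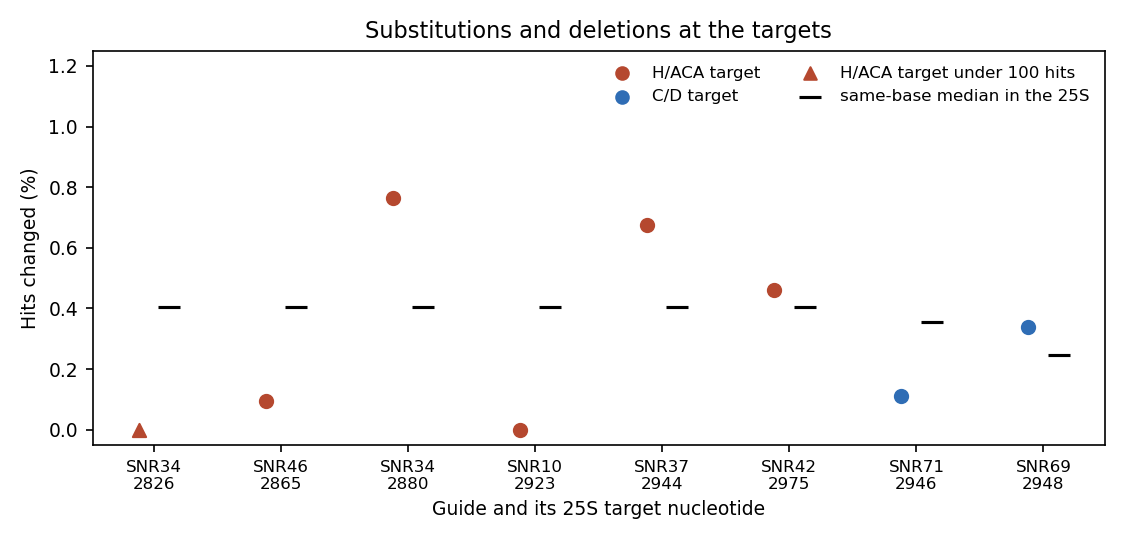
Percent of control hits with a substitution or deletion at each target (points, H/ACA in red, C/D in blue, triangle under 100 hits), beside the median of the 25S positions that share its base and reach 100 hits (black dash). All 8 values are at or below 0.764%, with 4 above their dash.

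The most changed nucleotides of the region were not targets. Of its 135 nucleotides with at least 100 hits, 7 are targets, and 10 were changed in over 5% of hits. At this share, 7 targets are too few to show that targets differ from other positions. The 10 nucleotides lay between 5 and 21 nucleotides from the nearest target. The stretches around the targets with the most hits are shown with these nucleotides in capitals.
2855 to 2890 (targets of SNR46 and SNR34): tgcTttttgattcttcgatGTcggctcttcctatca
2934 to 2963 (targets of SNR37, SNR71 and SNR69): atagggaacgtgagctgggTtTagaccgtc
2965 to 2980 (target of SNR42): tgagacaggttagttT
In the first, T2858 had 73 substitutions in 1006 hits (7.26%), 7 nucleotides from the target of SNR46. G2874 had 95 deletions and 7 substitutions in 1098 hits (9.29%) and T2875 had 60 substitutions and 47 deletions in 1093 hits (9.79%), 6 and 5 nucleotides before the target of SNR34. The most hits of the region, 1098, were shared by 2872, 2873 and 2874, of which 2872 was changed in 0.455% of hits and 2873 in 2.64%. In the second, T2955 had 138 deletions and 16 substitutions in 870 hits (17.7%), 7 nucleotides after the target of SNR69, and T2953 had 46 substitutions and 1 deletion in 870 hits (5.40%). In the third, T2980 had 35 deletions and 1 substitution in 638 hits (5.64%), 5 nucleotides after the target of SNR42.

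Pooled over the 8 targets, 21 of 5455 hits were changed (0.385%), against 1.37% of all hits in the region and 1.08% of those on the whole 25S rRNA. Deletions were 35.7% of the changes in the region, and 14 of its 161 nucleotides had any. The pooled value of the region rests on few nucleotides, as the median over its single nucleotides with at least 100 hits was 0.364%, against 0.323% over the 25S rRNA.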

How the data were processed

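RNA of 1 library from untagged BY4742 cells was sequenced on a MiSeq after 16 PCR cycles. The paper describes its 25S profiles as unique sequence reads. Whether each hit used here stands for a separate molecule was not examined, so hits were not taken as independent molecules. According to the methods, Flexbar trimmed the reads, Novoalign aligned them and pyCRAC counted hits. The design text names another tagged protein than the title, which does not touch the untagged control. The submitters' processing notes name the R64 build. The authors deposited whole numbers scaled per 1000000 reads (table of 67 names, 6 RNA classes) and, by the file header, per 100000 reads (25S pileup), which were treated here as a score and not as raw counts. Depth is unknown, and no interval was computed. RefSeq lists 2 copies of the 25S gene, whose reads cannot be told apart.

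All 67 names matched RefSeq symbols, which gave lengths and coordinates. H/ACA names came from a written list, and NME1, the RNA of RNase MRP, was put in neither class. Like SNR34, the H/ACA snoRNAs SNR8, SNR31, SNR44, SNR49, SNR81, SNR85, SNR86 and SNR161 of that list are not among the 67 names. Which guide serves which target is textbook knowledge and was not derived from the files. The files and tables used here hold no snoRNA sequences, so pairing was not examined. Changes are substitutions plus deletions per hit, compared where a nucleotide reached 100 hits. The text names all guides and targets, neighbours in the table, class extremes, the list of other domain V guides and the most changed or most covered nucleotides of the region. Members and lists were chosen with earlier results of these data known. No statistical test between groups was run. The comparison by base was only tried on simulated pileups in which some nucleotides were strongly changed. Those pileups held no deletions, and they do not check differences as small as those at the targets. Alternatives varied the summary, the RNA length, the names in the total, the window, the background and the minimum of hits. Python 3.11.15 and matplotlib 3.10.9 were used.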

Additional observations from a re-analysis of the deposited data

How the results depend on the processing

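Without replicates or a known depth, any difference in the first 3 significant digits of a value was treated as a change, and for counts a difference of over 1.5 times. The H/ACA to C/D ratio of 0.406 was 0.467 with means, 0.136 per 100 nt of RNA, 0.380 to 0.433 with each guide left out in turn, and 0.380 with SNR34 at 0, an alternative added after the data had been seen. It was below 1 under all of these. The guides' share of snoRNA hits, 5.01%, was 5.05% without NME1, 7.10% without the 3 names with the most hits and 3.83% per 100 nt. The 3 guides above the table median became 5 against the median of their own class. It was 3 among names above 0 and with SNR34 at 0, and 2 per 100 nt.

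The median of hits at the 8 targets, 5.21-fold of the 25S median, was 5.10-fold over 5 nt and 4.91-fold over 10 nt on each side, 1.39-fold of the region's median and 0.573-fold of the 25S mean, where the direction reversed (without the 5% of nucleotides with the most hits, none of them in the region, that mean is 412 in place of 1547). The median percent changed over the 8 targets, 0.226%, was 0.284% with 1 nt on each side and 0 with deletions only, as no target had one. The 4 targets above the median of their base became 2 against the same base within the region and 0 with at least 1000 hits, where only 1 target is left. No paired analysis was possible because only 1 library was at hand, and no replicate could be left out.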

Other observations

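The largest shares of changed hits in the region stood at nucleotides with few hits. T2843 had 5 substitutions in 17 hits (29.4%), the lowest number of hits in the region, and T2835 had 9 in 38 hits (23.7%), 9 nucleotides from the 5′ target of SNR34. U2843 is known as a nucleotide whose base is methylated by Bmt6. Hits were 20 at 5 nucleotides before it and 393 at 5 nucleotides after it. G2901, just after the stretch that contains the targets of SNR46 and SNR34, had 8 substitutions and 9 deletions in 134 hits (12.7%), against 556 hits at 5 nucleotides before it. The part of depth in these shares was not tested.

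The region also holds ribose-methylated nucleotides that other guides serve. Nucleotide 2921 (SNR52) had 133 hits and no change, and 2959 (SNR73) had 834 hits with 2 substitutions (0.240%).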
